A study of Mus musculus with 35 samples.

Results

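The 8 genes described here make, recycle, modify or spend nicotinamide adenine dinucleotide (NAD) in mouse liver: Nampt, Nmrk1, Naprt, Nadsyn1, Nadk, Nnmt, Sirt1 and Sirt3. Their members were all open-chromatin regions that the authors' annotation assigned to 1 of these genes and that were centred within 100000 bp of its transcription start site. This rule gave 101 of 177904 regions, out of 125 regions with these gene names at any distance. Nnmt held 39 of them, Nampt 18, Nadk 16, Sirt1 7, Nadsyn1 and Nmrk1 6 each, Sirt3 5 and Naprt 4. All 101 passed the filter on low signal, so none was lost before testing.

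NAD carries electrons in metabolism and is also consumed as a substrate, which releases nicotinamide. The salvage enzyme NAMPT returns nicotinamide to the NAD pool, and in mouse liver its gene is a known output of the circadian clock. NMRK1 phosphorylates nicotinamide riboside, NAPRT starts the Preiss-Handler route from nicotinic acid, and NADSYN1 performs the last step of that route and of synthesis from tryptophan. NADK converts NAD to NADP. NNMT methylates nicotinamide with S-adenosylmethionine and so takes it out of salvage, and the deacylases SIRT1 (mainly nuclear) and SIRT3 (mitochondrial) spend NAD.

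The study measured open chromatin by ATAC-seq, in which a transposase cuts accessible DNA, in hepatocyte nuclei of tumor-bearing and PBS-injected mice. All mice, controls included, were Hep-INTACT animals with the genotype CAG-Sun1/sfGFP, Albumin-Cre, whose albumin-driven Cre switches on a nuclear-envelope tag used to pull out the nuclei. The C26 cohort (BALB/c) comprised C26 PBS, C26 pre-cachexia and C26 cachexia animals, and the 8025 cohort (C57BL/6N) comprised 8025 cachexia and 8025 PBS animals. The weight-stable cohorts were NC26 tumor and NC26 PBS (BALB/c), and MC38 tumor and MC38 PBS (C57BL/6N). Each group had 4 libraries, 1 per animal, except 8025 PBS with 3 (replicates 1, 2 and 4). Livers were taken at ZT 9, in the cachexia groups at more than 10% weight loss, and the labels state no ages. Tumor line, strain and cohort go together in this design and cannot be told apart across cohorts.

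Depth was 11.3 to 23.8 M tags, with NC26 tumor replicate 1 below that range at 3.47 M. The labelled cell type was checked at promoters. Regions within 1000 bp of a start site were present for 5 of 6 hepatocyte markers, with summed signal of 647.2 to 1201 in every library, and for 1 of 6 macrophage, 1 of 4 neutrophil, 1 of 4 endothelial, 2 of 4 stellate and 0 of 4 lymphocyte markers. The macrophage sum (Adgre1) was 2.59 to 8.91 in C26 cachexia, against 1.27 to 4.35 in C26 PBS, and 3.39 to 8.73 in 8025 cachexia, against 1.03 to 3.53 in 8025 PBS. The neutrophil sum (S100a8) was 7.20 to 11.9 in C26 cachexia, against 2.56 to 9.29 in C26 PBS, and 6.40 to 9.89 in 8025 cachexia, against 1.41 to 5.14 in 8025 PBS. Of the cholangiocyte markers 2 of 4 (Epcam and Sox9) had regions, summing to 107 to 127 in C26 cachexia, against 71.7 to 98.8 in C26 PBS, and 151 to 178 in 8025 cachexia, against 102 to 138 in 8025 PBS. The endothelial sum (Kdr) was 10.3 to 14.8 in C26 cachexia, against 7.97 to 10.25 in C26 PBS, and 7.37 to 11.2 in 8025 cachexia, against 4.99 to 9.26 in 8025 PBS. The stellate sum was 19.4 to 24.5 in C26 cachexia, against 13.02 to 24.9 in C26 PBS, and 15.8 to 32.2 in 8025 cachexia, against 9.87 to 14.4 in 8025 PBS. It was also higher without cachexia, at 17.98 to 25.2 in NC26 tumor, against 10.53 to 13.99 in NC26 PBS. The other marker sums overlapped between tumor and PBS in both weight-stable cohorts, as did the stellate sum in MC38. The hepatocyte sum was 832.2 to 948.3 in C26 cachexia, against 647.2 to 921.9 in C26 PBS. In 8025 cachexia it was 817.9 to 962.1, against 906.3 to 922.5 in 8025 PBS. The part of these markers in the results below was not tested. In such bulk libraries a region open in more nuclei and a region more open in each nucleus cannot be told apart.

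Signal is given as the authors' tags per 10 M in 400 bp, and regions are named by gene and by the distance of their centre to the start site in bp, negative before it. Changes are log2 differences with their standard errors from limma, fitted to all regions, and a region was called where its Benjamini-Hochberg adjusted p was below 0.05. The 250 bases before the start are shown for 3 members whose promoters were in every library's peak list. These are Nampt and Nadk, whose promoter signal was called higher in C26 cachexia than in C26 PBS, and Sirt1, whose promoter was called in no comparison with PBS. They are RefSeq sequences of GRCm38.p6 (mm10), written 5′ to 3′ on the gene's strand, with capitals for E-boxes (CACGTG, the core bound by clock factors and others) and GC boxes (GGGCGG or, on the other strand, CCGCCC). The windows are chr12:32820085-32820334 (plus strand) for Nampt, chr4:155563565-155563814 (plus strand) for Nadk and chr10:63339036-63339285 (minus strand) for Sirt1.
Nampt: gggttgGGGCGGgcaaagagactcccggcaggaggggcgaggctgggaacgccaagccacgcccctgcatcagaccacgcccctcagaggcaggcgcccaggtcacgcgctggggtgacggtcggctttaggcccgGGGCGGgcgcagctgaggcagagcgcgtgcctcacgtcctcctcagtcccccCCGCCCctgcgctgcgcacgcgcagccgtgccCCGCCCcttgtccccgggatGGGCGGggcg
Nadk: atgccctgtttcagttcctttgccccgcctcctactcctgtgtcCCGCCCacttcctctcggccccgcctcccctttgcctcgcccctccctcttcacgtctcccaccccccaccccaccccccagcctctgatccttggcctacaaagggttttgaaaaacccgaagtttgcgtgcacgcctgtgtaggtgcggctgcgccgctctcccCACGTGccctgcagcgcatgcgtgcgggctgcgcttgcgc
Sirt1: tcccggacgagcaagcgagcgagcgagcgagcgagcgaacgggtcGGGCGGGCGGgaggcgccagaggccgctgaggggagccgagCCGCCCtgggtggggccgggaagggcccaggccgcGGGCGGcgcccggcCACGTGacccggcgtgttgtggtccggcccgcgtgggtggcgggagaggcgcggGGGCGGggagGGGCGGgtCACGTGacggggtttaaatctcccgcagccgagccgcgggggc

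The Nampt window held 5 GC boxes and no E-box. The Nadk window held 1 of each, with the E-box ending 35 bases before the start. The Sirt1 window held 2 E-boxes, ending 110 and 38 bases before the start, and 6 GC boxes, counting overlapping matches. No E-box overlapped a GC box in these windows. Of 32851 RefSeq promoter windows of the same length, 6.0% held an E-box and 32.7% a GC box on either strand. GC content was 75.6% for Nampt, 66.0% for Nadk and 79.2% for Sirt1, against a median of 52.4% over all windows. By symbol 6 of the 8 genes matched, with 8 windows. None of these 8 held a STAT motif (TTCNNNGAA), a C/EBP motif (TTNNGCAA), an AP-1 motif (TGANTCA), a forkhead motif (TGTTTAC) or a D-box (TTANGTAA), which 7.0%, 9.6%, 6.7%, 3.2% and 2.1% of all windows held, in that order.

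In C26 cachexia against C26 PBS, 15 of the 101 regions were called, 8 higher and 7 lower, where 14.2% of all regions were called. The calls lay at Nampt (3 higher, 2 lower), Nnmt (4 higher, 1 lower), Nadk (1 higher, 3 lower) and Sirt1 (1 lower). In 8025 cachexia against 8025 PBS, 10 were called, 5 higher and 5 lower, where 12.3% of all regions were called. These lay at Nampt (3 lower), Nnmt (3 higher), Nadk (1 higher), Sirt1 (1 higher, 1 lower) and Nmrk1 (1 lower). No region of Naprt, Nadsyn1 or Sirt3 was called against PBS in any cohort. Both shares are near those of all regions, so the NAD genes did not stand apart as a group by how many of their regions changed. The median log2 change over the 101 regions was 0.10 in C26 cachexia and 0.04 in 8025 cachexia, against 0.0028 and 0.0021 over all regions.

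The weight-stable tumors gave no called member region. In NC26 tumor against NC26 PBS, limma called 0 of 101 (0.177% of all regions), and edgeR and DESeq2 also called 0. In limma 10 of the 101 had an unadjusted p under 0.05, as did 18610 of all 177251 tested regions. In MC38 tumor against MC38 PBS, limma called 0 of 101 (0.0186% of all regions), and edgeR and DESeq2 again called 0. Here 10 of the 101 had an unadjusted p under 0.05 in limma, as did 11182 of all 177251 tested regions. C26 pre-cachexia against C26 PBS had 3 calls, all lower (1.31% of all regions), and C26 cachexia against C26 pre-cachexia had 3, all higher (5.42% of all regions). Of the regions called in the 2 cachexia models, 3 were shared, Nnmt -72, Nampt -32997 and Sirt1 +593, each with the same direction in both. They made up 20% of the C26 calls and 30% of the 8025 calls. The same shares were not computed over all regions, so they do not set the NAD genes apart. The 2 models do not share control animals.

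**Figure D1:**
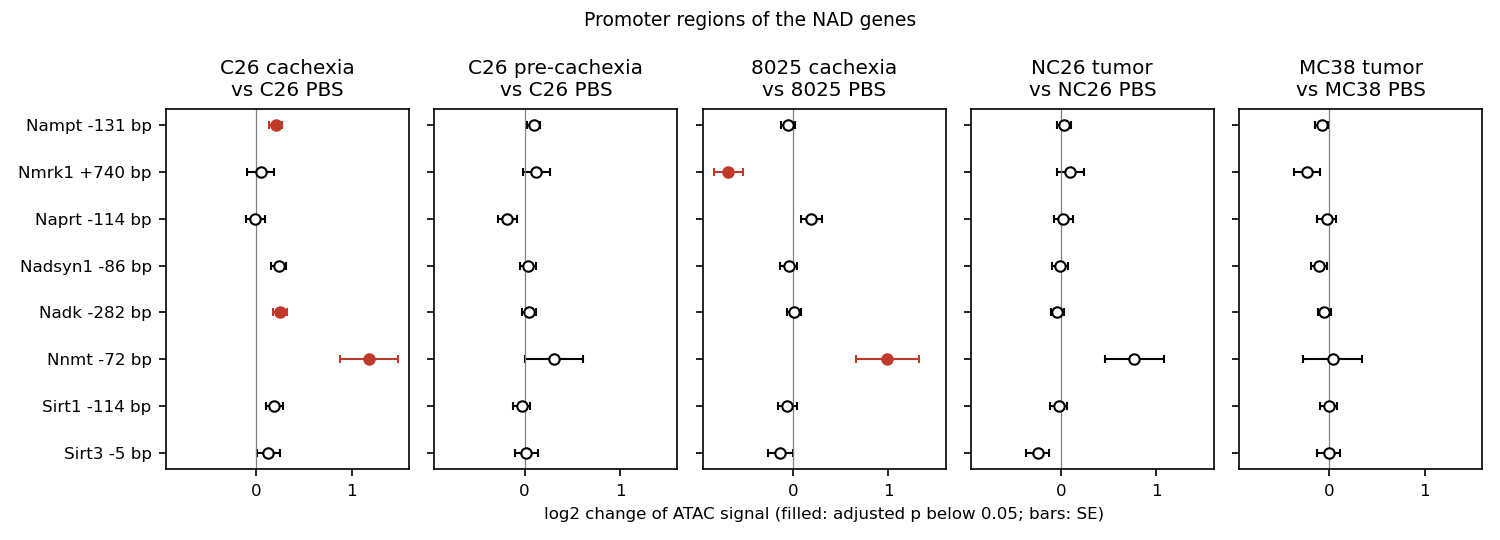
Log2 change of ATAC signal at 1 promoter region per gene (the region with the highest mean within 1000 bp of the start site) in 5 comparisons with PBS; circles are limma estimates, bars their standard errors, and filled circles have an adjusted p below 0.05. Nnmt -72 sits near 1 in both cachexia panels, Nmrk1 +740 is at -0.68 in the 8025 panel, and the remaining promoters lie between -0.25 and 0.25, apart from Nnmt -72 in the C26 pre-cachexia and NC26 tumor panels.

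Nnmt, the gene that diverts nicotinamide from salvage, had the largest promoter change of the 8 genes in both cachexia cohorts. The region Nnmt -72 (chr9:48604995-48605395, mm10, annotated as the Nnmt promoter) carried 91.35, 105.2, 104.7 and 97.4 tags per 10 M in the C26 cachexia libraries, against 44.2, 56.7, 47.1 and 27.2 in the C26 PBS libraries. Every cachexia library lay above every PBS library, and the log2 change was 1.18 ± 0.31 (SE; limma, adjusted p = 0.0089). This call held under each of the 19 alternatives. In C26 pre-cachexia the values were 92.2, 47.96, 74.3 and 29.5, which overlapped both other groups. The log2 change there was 0.31 ± 0.31 against C26 PBS (limma, adjusted p = 0.79), and cachexia against pre-cachexia gave 0.87 ± 0.31 (adjusted p = 0.099).

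In the 8025 cohort Nnmt -72 carried 159.7, 122.1, 97.5 and 125.1 tags per 10 M in cachexia libraries, against 59.5, 43.4 and 85.1 in PBS libraries. The groups did not overlap, and the log2 change was 0.99 ± 0.33 (limma, adjusted p = 0.048). This call was close to the threshold. It was lost when any 1 of 6 of the 7 libraries was left out (adjusted p = 0.052 to 0.25) and held without 8025 PBS replicate 4. With a promoter-share covariate the adjusted p was 0.06, and without the library-series term 0.083. The C26 and 8025 effects differed by 0.19 ± 0.45 (C26 minus 8025, limma, adjusted p = 0.95).

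In the weight-stable cohorts Nnmt -72 was not called. NC26 tumor libraries had 34.5, 17.55, 44.7 and 47.7 tags per 10 M, against 10.8, 14.7, 14.6 and 42.8 in NC26 PBS, a log2 change of 0.77 ± 0.31 (limma, adjusted p = 0.37). MC38 tumor libraries had 77.4, 48.6, 113.3 and 154.8, against 112.4, 65.2, 87.85 and 80.5 in MC38 PBS, a log2 change of 0.03 ± 0.31 (limma, adjusted p = 1.0). The cachexia effect was not shown to exceed the weight-stable one. The differences of effects were 0.41 ± 0.43 for C26 minus NC26 (limma, adjusted p = 0.71) and 0.96 ± 0.45 for 8025 minus MC38 (adjusted p = 0.35).

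**Figure D2:**
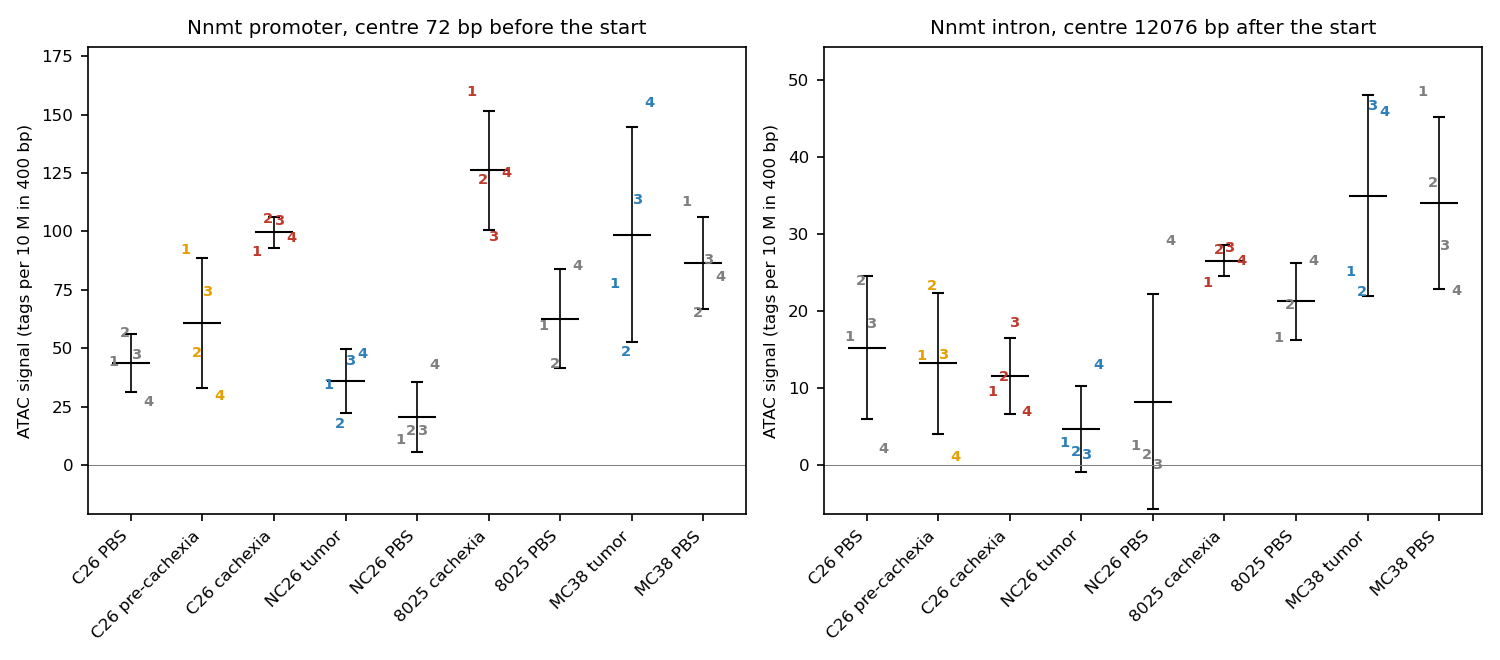
ATAC signal (tags per 10 M in 400 bp) of each library at the Nnmt promoter (Nnmt -72, left) and in an intron (Nnmt +12076, right); digits are replicate numbers, and bars show mean and SD. At the promoter all C26 and 8025 cachexia libraries lie above their own PBS libraries, and in the intron the 4 MC38 PBS libraries sit between 22.6 and 48.4 while 3 of the 4 NC26 PBS libraries are at 2.49 or below.

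Nnmt is transcribed toward lower coordinates on chromosome 9, and 10 of its 39 regions lie inside introns of the neighboring gene Zbtb16. Nnmt +6116, in an Nnmt intron (chr9:48598807-48599207), had 24.8, 19.6, 28 and 18.3 tags per 10 M in 8025 cachexia libraries, against 2.49, 8.46 and 10.0 in 8025 PBS libraries. The groups were well apart, with a log2 change of 1.68 ± 0.42 (limma, adjusted p = 0.0049), and the call was lost only without 8025 PBS replicate 1 (adjusted p = 0.096). In C26 cachexia the same region had 6.60, 14.2, 16.2 and 8.57, against 7.26, 5.42, 5.57 and 2.17 in C26 PBS, a log2 change of 1.01 ± 0.39 that did not pass (limma, adjusted p = 0.076). NC26 tumor libraries had 0.00, 0.86, 2.69 and 5.09, against 2.49, 3.85, 2.43 and 6.98 in NC26 PBS, with overlap and without a call (log2 -0.96 ± 0.39, limma, adjusted p = 0.36).

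The C26 cachexia effect exceeded the NC26 tumor effect at this region, by log2 1.97 ± 0.55 (limma, adjusted p = 0.043). It was 1 of 2 member regions called in that difference, where 2.21% of all regions were called. The call was lost under 18 of 26 alternatives, 11 of them single libraries left out, edgeR gave an adjusted p of 0.15, and without the low-depth library NC26 tumor replicate 1 the difference was 1.61 (adjusted p = 0.11).

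The other Nnmt calls lay at weaker regions. In C26 cachexia Nnmt -798, at the edge of the promoter, averaged 14.98 tags per 10 M, against 7.76 in C26 PBS (log2 0.85 ± 0.29, limma, adjusted p = 0.039). Within Zbtb16, Nnmt -89582 and Nnmt -52825 were higher in C26 cachexia by log2 0.98 ± 0.32 (adjusted p = 0.032) and 1.05 ± 0.36 (adjusted p = 0.038), and Nnmt -89935 was higher in 8025 cachexia by 1.28 ± 0.44 (adjusted p = 0.048). Nnmt +19519, beyond the end of the gene, was lower in C26 cachexia by log2 -0.87 ± 0.24 (limma, adjusted p = 0.011). Nnmt -74045 was called in C26 cachexia against C26 pre-cachexia, with means of 8.37 and 2.10 tags per 10 M and a log2 change of 1.72 ± 0.45 (adjusted p = 0.014). It was not called without C26 pre-cachexia replicate 2 (adjusted p = 0.097) or C26 cachexia replicate 4 (adjusted p = 0.052).

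Over the 39 Nnmt regions the median log2 change was 0.42 in C26 cachexia, with 30 estimates above 0, and 0.25 in 8025 cachexia, with 33 above 0. Over the other 62 member regions it was -0.03 and -0.06, with 28 and 23 above 0. In C26 pre-cachexia the Nnmt median was -0.15. The called share of the 39 Nnmt regions was not above that of all regions. It was 12.8% in C26 cachexia, against 14.2%, and 7.69% in 8025 cachexia, against 12.3%. The share of estimates above 0 was not computed over all regions, where the median log2 changes were 0.0028 and 0.0021. Neighboring regions can share reads, since 14 of the 39 Nnmt regions overlap another region, so these counts are not of independent measurements.

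**Figure D3:**
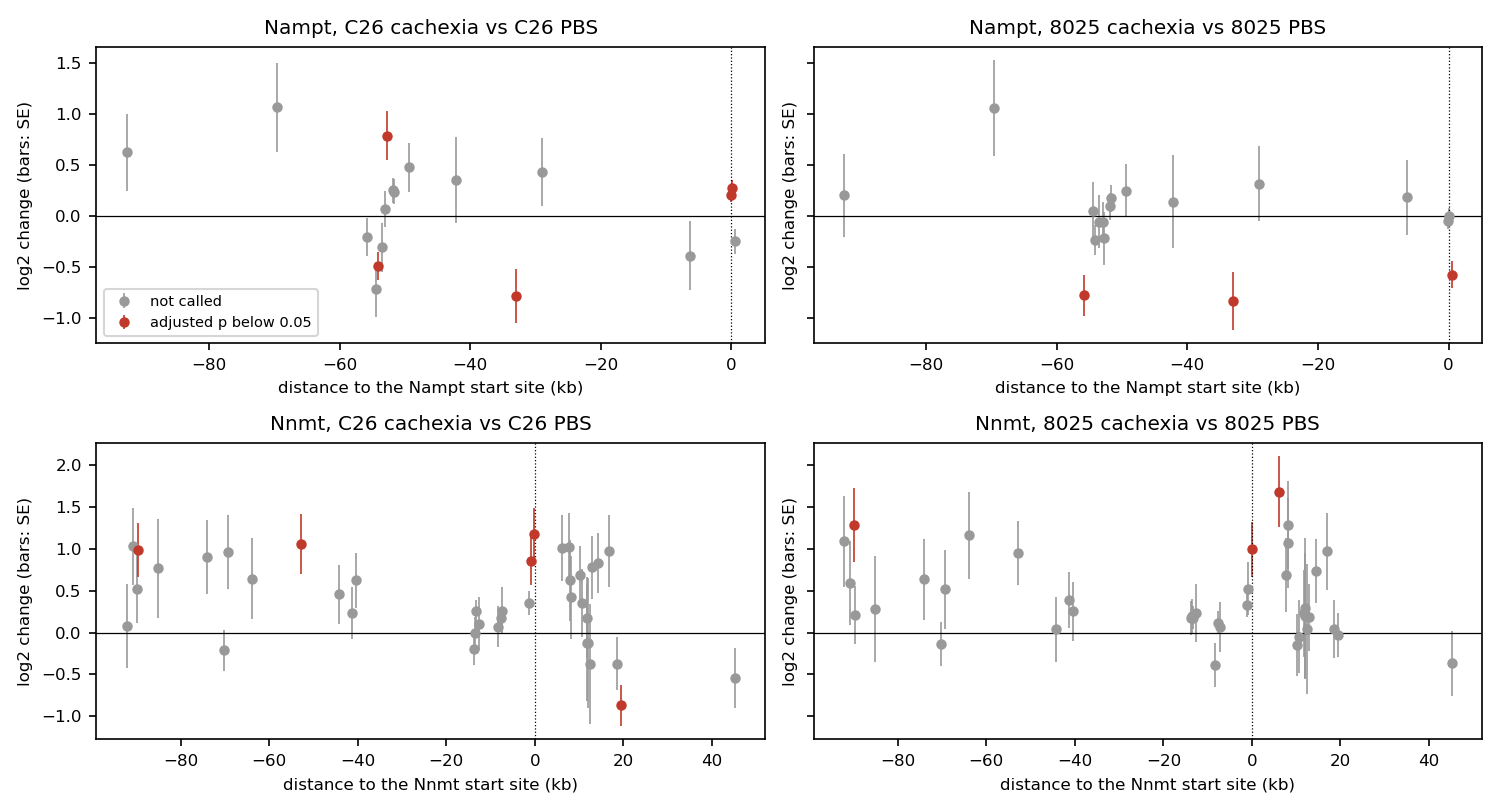
Log2 change of each member region against its distance to the start site in kb, for Nampt (top) and Nnmt (bottom), in C26 cachexia (left) and 8025 cachexia (right) against PBS; points are limma estimates, bars standard errors, and colored points have an adjusted p below 0.05. At Nnmt most points lie above 0 in both panels (30 and 33 of 39), while at Nampt called regions lie on both sides of 0 in C26 cachexia and below 0 in 8025 cachexia.

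Nampt, the salvage enzyme gene, had the strongest promoter of the 8 genes. Nampt -131 (chr12:32820004-32820404), which contains the sequence window shown above, averaged 429.5 ± 29.6 tags per 10 M in C26 cachexia and 365.6 ± 44.8 in C26 PBS (SD, n = 4 each). The groups overlapped, with 438.8, 465.4, 396.0 and 417.9 in cachexia, against 333.7, 431.8, 343.6 and 353.5 in PBS. The log2 change of 0.20 ± 0.07 was called (limma, adjusted p = 0.041). The overlapping region Nampt +42, which shares reads with it, changed by 0.27 ± 0.07 (adjusted p = 0.0067). In 8025 cachexia neither was called, and Nampt -131 had a log2 change of -0.05 ± 0.07 there (adjusted p = 0.75).

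The promoter rise was small, and C26 cachexia libraries also held a larger share of their region tags in promoters. Promoters took 42.17% to 42.89% of region tags in C26 cachexia, against 40.61% to 42.13% in C26 PBS. With that share as a covariate the change at Nampt -131 was 0.13 (limma, adjusted p = 0.17), while Nampt +42 stayed called at 0.20 (adjusted p = 0.03). Scaling by library totals alone ended both calls (adjusted p = 0.27 and 0.13). Nampt -131 was also lost without C26 PBS replicate 1, 2 or 3 or C26 cachexia replicate 1, 2 or 4 (adjusted p = 0.054 to 0.22). The difference between the C26 and 8025 effects was 0.25 ± 0.10 (C26 minus 8025, limma, adjusted p = 0.41).

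The intergenic regions between Nampt -55800 and Nampt -49378 held calls in both directions. Nampt -54189 had 71.3, 68.8, 62.2 and 75.4 tags per 10 M in C26 cachexia, against 89.9, 124.6, 102.5 and 71.7 in C26 PBS, a log2 change of -0.49 ± 0.14 (limma, adjusted p = 0.0093). The groups overlapped through C26 PBS replicate 4. In C26 pre-cachexia it had 57.9, 67.7, 51.1 and 63.6, below every C26 PBS library (log2 -0.75 ± 0.14, adjusted p = 0.00092). It was the member region with the lowest adjusted p in pre-cachexia, and its neighbor Nampt -54433, which overlaps it, was also lower there (-1.09 ± 0.27, adjusted p = 0.031). Scaling by library totals gave adjusted p values for Nampt -54189 of 0.10 in cachexia and 0.053 in pre-cachexia.

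In NC26 tumor Nampt -54189 had 66.2, 58.2, 100.8 and 70.65 tags per 10 M, against 85.0, 95.9, 98.1 and 121.9 in NC26 PBS, just short of a call (log2 -0.57 ± 0.14, limma, adjusted p = 0.056). In 8025 cachexia (-0.24 ± 0.15, adjusted p = 0.33) and MC38 tumor (0.05 ± 0.14, adjusted p = 0.99) it was not called. The C26 cachexia effect was not shown to differ from the NC26 tumor effect there (0.08 ± 0.19, adjusted p = 0.89).

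Nearer the gene, Nampt -52697 went the other way. It had 27.99, 25.3, 28.5 and 24.7 tags per 10 M in C26 cachexia, against 17.1, 12.1, 18.6 and 11.95 in C26 PBS, with no overlap (log2 0.78 ± 0.24, limma, adjusted p = 0.022). C26 pre-cachexia libraries had 9.38, 8.82, 16.2 and 15.04, and cachexia exceeded them by 1.14 ± 0.24 (adjusted p = 0.0022), a call that held under all 19 alternatives. The call against PBS was lost without C26 PBS replicate 2 (adjusted p = 0.11), C26 PBS replicate 4 (0.06) or C26 cachexia replicate 3 (0.064). Nampt -49378 was likewise higher in C26 cachexia than in pre-cachexia (0.87 ± 0.24, adjusted p = 0.021).

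In 8025 cachexia the 3 called Nampt regions were all lower than in 8025 PBS. Nampt +473, in intron 1 (chr12:32820608-32821008), had 72.5, 57.9, 56.2 and 60.5 tags per 10 M, against 81.65, 92.4 and 95.95 in 8025 PBS (log2 -0.57 ± 0.13, limma, adjusted p = 0.0020). The groups did not overlap, and all 18 alternatives kept the call. In C26 cachexia Nampt +473 had 62.6, 61.7, 69.02 and 67.5, against 73.7, 87.3, 73.7 and 69.2 in C26 PBS, not a call (-0.25 ± 0.12, adjusted p = 0.19). Nampt -55800 was lower in 8025 cachexia by -0.78 ± 0.20 (adjusted p = 0.0066). The weak intergenic region Nampt -32997 was lower in both models, at 6.31 in C26 cachexia, against 11.1 in C26 PBS, and at 5.4 in 8025 cachexia, against 9.65 in 8025 PBS (log2 -0.78 ± 0.26 and -0.83 ± 0.28, adjusted p = 0.037 and 0.046). Its calls were lost without any of 4 single libraries in C26 (C26 PBS replicates 2 and 4, C26 cachexia replicates 2 and 4, adjusted p = 0.077 to 0.17) and any of 5 in 8025 (each PBS replicate, and cachexia replicates 3 and 4, adjusted p = 0.076 to 0.19). Library totals, the replicate block and edgeR also ended the C26 call (adjusted p = 0.05 to 0.082). RLE scaling, library totals, a pseudocount of 5, the promoter share, the replicate block and a fit of the 8025 cohort alone ended the 8025 call (adjusted p = 0.05 to 0.26).

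Nmrk1, the nicotinamide riboside kinase gene, had 1 region called against PBS. Nmrk1 +740 (chr19:18632556-18632956), which the annotation also places in the promoter of the neighbor Ostf1, had 59.15, 54.5, 39.4 and 48.6 tags per 10 M in 8025 cachexia, against 71.05, 86.4 and 78.45 in 8025 PBS. Every cachexia library lay below every PBS library, the log2 change was -0.68 ± 0.15 (limma, adjusted p = 0.0015), and the call held under all 18 alternatives. In C26 cachexia it had 65.7, 59.3, 63.2 and 52.45, against 49.1, 59.9, 67.2 and 52.2 in C26 PBS (0.04 ± 0.14, adjusted p = 0.89). The 2 effects differed by 0.72 ± 0.21 (C26 minus 8025), an unadjusted p of 0.00099 that did not pass over all regions (limma, adjusted p = 0.16). For that difference 0 of 101 member regions were called by limma, edgeR or DESeq2 (0.1% of all regions). In limma 10 of the 101 had an unadjusted p under 0.05, as did 16090 of all 177251 tested regions.

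The Preiss-Handler genes had no called region against PBS. Naprt -114 (chr15:75894395-75894795) averaged 116.9 ± 8.9 tags per 10 M in C26 cachexia and 117.1 ± 25.8 in C26 PBS, and 132.2 ± 15.6 in 8025 cachexia (SD, n = 4 each) and 112.9 ± 17.9 in 8025 PBS (SD, n = 3). The log2 changes were -0.01 ± 0.10 and 0.19 ± 0.11 (limma, adjusted p = 0.96 and 0.28). The Nadsyn1 -86 region (chr7:143822738-143823138) is annotated as the promoter of its neighbor Dhcr7, a cholesterol synthesis gene, so a change there could belong to either gene. It averaged 261.9 ± 24.5 in C26 cachexia and 221.4 ± 54.3 in C26 PBS (SD, n = 4 each), with 0.23 ± 0.08 just short of a call (limma, adjusted p = 0.051). Leaving out C26 PBS replicate 2, the highest PBS library at 297.3, gave 0.30 (adjusted p = 0.013). Of the 19 alternatives, 16 left Nadsyn1 -86 uncalled and 3 called it, with log2 changes of 0.167 to 0.305 over all 19.

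Nadk, which makes NADP, combined a higher promoter with lower regions in the gene body in C26 cachexia. Nadk -282 (chr4:155563333-155563733), which overlaps the window shown above, had 390.5, 418.7, 368.8 and 404.5 tags per 10 M in C26 cachexia, against 321.3, 402.15, 323.2 and 266.6 in C26 PBS. The groups overlapped through C26 PBS replicate 2, and the log2 change was 0.25 ± 0.07 (limma, adjusted p = 0.012). With the promoter share as a covariate it was 0.20 (adjusted p = 0.044), and it was lost by library totals (adjusted p = 0.16) and without C26 PBS replicate 3 (0.058), C26 PBS replicate 4 (0.068) or C26 cachexia replicate 4 (0.051). Nadk +5378 and Nadk +13525 were lower in C26 cachexia by log2 -0.56 ± 0.19 and -0.46 ± 0.14 (adjusted p = 0.04 and 0.015), as was Nadk -3998, over the 3′ UTR of the neighbor Gnb1 (-0.95 ± 0.30, adjusted p = 0.026).

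Nadk +3024, in an Nadk intron, was called only in C26 pre-cachexia among the 5 comparisons with PBS, with 50.4, 51.8, 44.3 and 48.2 tags per 10 M, against 71.9, 83.2, 69.7 and 51.8 in C26 PBS. The log2 change was -0.57 ± 0.15 (limma, adjusted p = 0.045), and 7 of 8 single libraries left out ended the call (adjusted p = 0.084 to 0.20). In C26 cachexia its change was -0.32 ± 0.15 (adjusted p = 0.17).

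The largest Nadk change was in 8025 cachexia, at a region that lies in an intron of the neighbor Gnb1. Nadk -7393 (chr4:155554788-155555188) had 58.85, 56.7, 30.7 and 48.6 tags per 10 M in 8025 cachexia, against 18.1, 9.17 and 28.3 in 8025 PBS. The groups did not overlap, the log2 change was 1.40 ± 0.28 (limma, adjusted p = 0.00033), and the call held under all 18 alternatives. In C26 cachexia the same region had 18.7, 24.1, 31.1 and 18.9, against 11.5, 21.35, 19.8 and 9.78 in C26 PBS (0.55 ± 0.26, adjusted p = 0.15). The 8025 effect exceeded the MC38 tumor effect by 1.22 ± 0.38, short of the threshold (adjusted p = 0.081). In that difference limma, edgeR and DESeq2 each called 0 of 101 member regions (1.71% of all regions). In limma 10 of the 101 had an unadjusted p under 0.05, as did 23959 of all 177251 tested regions.

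Among the NAD-consuming sirtuins, the Sirt1 promoter was not called, while a region in intron 1 was lower in both cachexia models. Sirt1 -114 (chr10:63338949-63339349) averaged 177.4 ± 12.6 tags per 10 M in C26 cachexia and 153.9 ± 31.3 in C26 PBS (SD, n = 4 each), a log2 change of 0.19 ± 0.09 (limma, adjusted p = 0.18), and in 8025 cachexia it changed by -0.06 ± 0.10 (adjusted p = 0.78). Sirt1 +593 (chr10:63338242-63338642) had 34.3, 39.1, 35.65 and 32.6 in C26 cachexia, against 42.3, 48.4, 53.25 and 42.4 in C26 PBS, and 46.4, 32.5, 29.9 and 43.1 in 8025 cachexia, against 47.99, 65.2 and 49.65 in 8025 PBS. Neither pair of groups overlapped, with log2 changes of -0.42 ± 0.15 (adjusted p = 0.047) and -0.55 ± 0.16 (adjusted p = 0.015).

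Both Sirt1 +593 calls were fragile. In C26 the call was lost when any 1 of 7 of the 8 libraries was left out (adjusted p = 0.053 to 0.12), and in 8025 without PBS replicate 2 (0.17), cachexia replicate 2 (0.053) or cachexia replicate 3 (0.074). Sirt1 +1956, over exon 2, was higher in 8025 cachexia, with a mean of 21.7, against 11.3 in 8025 PBS (0.87 ± 0.28, adjusted p = 0.03). Sirt3 -5 (chr7:140881674-140882074), the mitochondrial sirtuin's promoter, averaged 96.3 ± 12.5 in C26 cachexia and 86.9 ± 18.1 in C26 PBS (SD, n = 4 each), without a call (0.13 ± 0.12, limma, adjusted p = 0.57).

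The largest differences among the member regions lay at Nnmt, between PBS groups and not between tumor and PBS animals. For Nadk and Sirt1 the largest called changes lay instead in 8025 cachexia against 8025 PBS (log2 1.40 at Nadk -7393 and 0.87 at Sirt1 +1956). In MC38 PBS (C57BL/6N) against NC26 PBS (BALB/c), 21 of 101 member regions were called, 19 higher and 2 lower, where 9.08% of all regions were called. Of these, 11 were Nnmt regions, some of which overlap each other and share reads. Nnmt -72 averaged 86.5 ± 19.7 tags per 10 M in MC38 PBS and 20.7 ± 14.8 in NC26 PBS (SD, n = 4 each), a log2 difference of 2.07 ± 0.31 (limma, adjusted p = 2e-05) that held under all 17 alternatives. The intergenic region Nnmt -44175 had 152.7, 87.7, 190.2 and 234.7 in MC38 PBS, against 38.2, 25.2, 42.15 and 78.3 in NC26 PBS (1.74 ± 0.36, adjusted p = 0.0014), and this call too held under all 17.

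A block of 5 regions in an Nnmt intron and the last exon, from Nnmt +11723 to Nnmt +12890, differed by log2 1.70 to 3.02 between these PBS groups. All but Nnmt +12890 overlap a neighbor in the block and share reads, so the 5 are not independent measurements. Nnmt +12076 (chr9:48592847-48593247) had 48.4, 36.6, 28.4 and 22.6 tags per 10 M in MC38 PBS, against 2.49, 1.40, 0.00 and 29.1 in NC26 PBS. All NC26 PBS libraries but replicate 4 were near 0, and the log2 difference was 3.02 ± 0.77 (limma, adjusted p = 0.011), or 3.98 without that library (adjusted p = 0.00029). The call was lost without NC26 PBS replicate 3 (adjusted p = 0.081), with array weights (0.056) and by edgeR (0.077). The authors' peak lists held this region in 14 of 15 C57BL/6N libraries and 6 of 20 BALB/c libraries.

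The other pair of PBS groups had few calls. In 8025 PBS (C57BL/6N) against C26 PBS (BALB/c), a comparison added after these values were seen, 2 of 101 member regions were called (4.8% of all regions), Nadk -282 and Sirt3 +1231, both higher in 8025 PBS. Nnmt -72 differed by -0.20 ± 0.40 (limma, adjusted p = 0.88), although the deposited means ran the other way, at 62.7 in 8025 PBS and 43.8 in C26 PBS, so its direction is not settled. Nnmt -44175 differed by 0.29 ± 0.46 (adjusted p = 0.85) and Nnmt +12076 by 0.31 ± 1.00 (adjusted p = 0.93). These 2 groups belong to different library series, so their difference leans on a series term taken from the NC26 and MC38 cohorts. Nmrk1 +4626, in a Nmrk1 intron, was lower in MC38 PBS than in NC26 PBS, at 17.9, 14.1, 13.6 and 18.2, against 38.6, 24.8, 34.45 and 37.0 (-1.15 ± 0.21, adjusted p = 7.6e-05, held under all 17 alternatives). It was also lower in 8025 PBS, at 18.1, 15.9 and 15.95, against 21.8, 32.8, 30.3 and 28.25 in C26 PBS, without passing (-0.80 ± 0.27, adjusted p = 0.077). Reads of BALB/c animals were aligned to mm10, a C57BL/6J assembly, and the part of alignment in these differences was not tested.

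**Figure D4:**
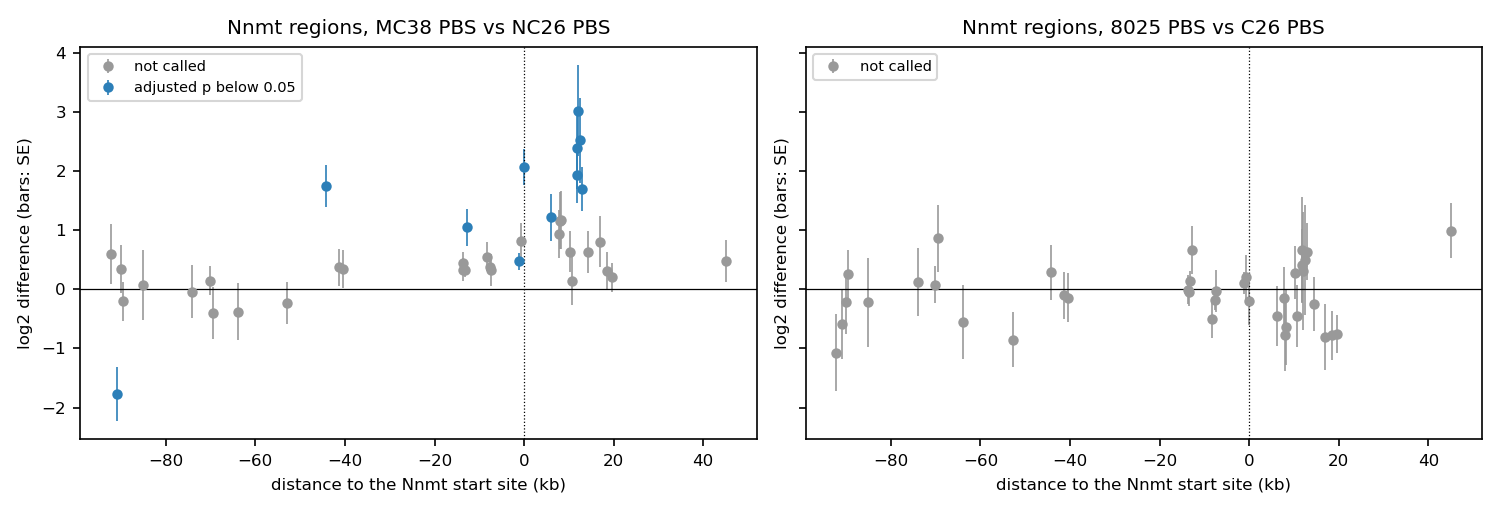
Log2 difference of the 39 Nnmt regions between PBS groups of the 2 strains against distance to the start site in kb, for MC38 PBS against NC26 PBS (left) and 8025 PBS against C26 PBS (right); points are limma estimates and bars standard errors. The 11 called regions on the left include 5 between 11.7 and 12.9 kb with differences of 1.70 to 3.02, most of which overlap. None of the 39 was called on the right.

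Within BALB/c animals the Nnmt intron varied between libraries of the same group. Among C26 libraries, replicate 4 had the lowest Nnmt +12076 signal in each group. It was 2.17 in PBS, 1.14 in pre-cachexia and 6.86 in cachexia, where the other C26 libraries had 9.50 to 23.9. In the NC26 cohort replicate 4 was instead the highest, at 13.05 in tumor and 29.1 in PBS, where the other NC26 libraries had 0.00 to 2.88. Whether the BALB/c animals share 1 genotype at this locus was not tested, which limits reading the block as a strain difference. Over the 20 BALB/c libraries its log2 signal followed that of Nnmt -44175 (Pearson r = 0.77) and Nnmt -72 (r = 0.68), with r = -0.20 and 0.46 over the 15 C57BL/6N libraries, given as a description since libraries share groups and depth. No comparison of tumor with PBS called this intronic region, and in C26 cachexia its log2 change was -0.13 ± 0.77 (limma, adjusted p = 0.95).

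Of the other genes of NAD metabolism, 47 had regions within 100000 bp, 560 in all. In C26 cachexia 40 were higher and 40 lower (14.3% called, against 14.2% of all regions). In 8025 cachexia 25 were higher and 25 lower (8.93% called, against 12.3% of all regions). The group that supplies methyl donors and clears nicotinamide, the reactions around NNMT, had the highest share in C26 cachexia, with 34 of 129 regions called, 16 higher and 18 lower (26.4%, against 14.2% of all regions). This list is named for its highest share, and all lists were chosen with earlier results of these data known. Its share is therefore a description only. In 8025 cachexia 15 of 129 were called, 10 higher and 5 lower (11.6%, against 12.3% of all regions). Mat1a, which makes the S-adenosylmethionine that NNMT uses, had 80.3, 78.3, 82.0 and 101.8 tags per 10 M at Mat1a +344 in C26 cachexia, against 23.1, 24.5, 22.6 and 17.75 in C26 PBS (log2 1.88 ± 0.19, limma, adjusted p = 8.2e-10). It was also higher in 8025 cachexia, by 1.04 ± 0.20 (adjusted p = 0.00031). The stronger intronic region Mat1a +8089 was lower in 8025 cachexia, at 142.55, 130.4, 118.7 and 145.5, against 174.8, 187.2 and 174.9 in 8025 PBS (-0.45 ± 0.11, adjusted p = 0.0033), so Mat1a held both directions in that model.

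Aox1 encodes an aldehyde oxidase that oxidizes methylated nicotinamide, and both of its regions named here were lower. Aox1 +7438 had 7.39, 3.15, 6.31 and 4.07 tags per 10 M in 8025 cachexia, against 24.6, 44.1 and 35.75 in 8025 PBS (log2 -2.57 ± 0.32, limma, adjusted p = 1.5e-07). The overlapping region Aox1 +7565 was lower in C26 cachexia by -1.90 ± 0.31 (adjusted p = 1.5e-05). Aox3 -35130, which lies in an Aox1 intron, was lower in C26 cachexia by -1.37 ± 0.20 (adjusted p = 4.8e-06).

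For synthesis from tryptophan, 9 of 142 regions were higher and 7 lower in C26 cachexia, and 6 higher and 7 lower in 8025 cachexia. These are 11.3% and 9.15% of its regions, below the 14.2% and 12.3% of all regions. Kmo +19417, at the kynurenine monooxygenase gene, was lower in both, by -1.71 ± 0.29 in C26 cachexia (limma, adjusted p = 2.6e-05) and -1.45 ± 0.31 in 8025 cachexia (adjusted p = 0.00097). The Ido2 gene held both directions within intron 1, with Ido2 +7461 higher by 1.49 ± 0.26 (adjusted p = 0.00011) and Ido2 +1941 lower by -1.03 ± 0.19 (adjusted p = 6.9e-05) in C26 cachexia. Sirt4 -7427, an intergenic region near the mitochondrial sirtuin gene Sirt4, had 93.7, 75.5, 90.4 and 99.1 tags per 10 M in C26 cachexia, against 23.1, 26.45, 25.4 and 27.5 in C26 PBS (1.73 ± 0.24, adjusted p = 1.5e-06). In 8025 cachexia it had 113.3, 116.1, 145.0 and 76.8, against 12.15, 16.6 and 26.75 in 8025 PBS (2.54 ± 0.26, adjusted p = 9.2e-09), again with no overlap. The same region was higher without cachexia too. It had 92.1, 34.25, 58.1 and 42.96 in NC26 tumor, against 24.9, 23.8, 18.2 and 25.2 in NC26 PBS (1.06 ± 0.24, limma, adjusted p = 0.043), and 63.5, 58.9, 63.8 and 38.6 in C26 pre-cachexia, above every C26 PBS library (0.99 ± 0.24, adjusted p = 0.022). The C26 cachexia effect was not shown to exceed the NC26 tumor effect (0.67 ± 0.34, adjusted p = 0.33), while the 8025 cachexia effect exceeded the MC38 tumor effect by 1.89 ± 0.35 (adjusted p = 0.0024).

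Nt5e -51257, near the gene of an ectonucleotidase that dephosphorylates nucleotides outside the cell, had 20.7, 28.8, 58.1 and 19.8 tags per 10 M in 8025 cachexia, against 1.25, 3.53 and 4.63 in 8025 PBS (log2 2.92 ± 0.49, limma, adjusted p = 4.7e-05). In C26 cachexia it did not pass (1.17 ± 0.46, adjusted p = 0.079). Among the PARP genes, whose products build ADP-ribose from NAD, 4 of 132 regions were higher and 8 lower in C26 cachexia, and 2 higher and 7 lower in 8025 cachexia, or 9.09% and 6.82% of regions, again below all regions. Parp2 -16, a region that the annotation places at the promoter of the RNase P RNA gene Rpph1, was higher in C26 cachexia by 0.49 ± 0.09 (adjusted p = 0.00016), Parp16 -13914 was higher in 8025 cachexia by 1.89 ± 0.40 (adjusted p = 0.0008), and Parp4 +19403 was lower there by -0.87 ± 0.23 (adjusted p = 0.0066). The shares of the next 4 lists stand against 14.2% of all regions in C26 cachexia and 12.3% in 8025 cachexia. For salvage and uptake 3 of 45 regions were higher and 2 lower in C26 cachexia, and 6 higher and 1 lower in 8025 cachexia (11.1% and 15.6% of regions). For NADP and mitochondrial NAD 5 of 64 were higher and 2 lower in C26 cachexia, and 2 lower in 8025 cachexia (10.9% and 3.12%). For the other sirtuins 2 of 26 were higher and 3 lower in C26 cachexia, and 1 higher and 3 lower in 8025 cachexia (19.2% and 15.4%). These sirtuin shares rest on only 5 and 4 called regions, and the 8025 share of salvage and uptake on 7. For NAD hydrolases 1 of 22 regions was higher in C26 cachexia (4.55%) and none was called in 8025 cachexia.

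The promoters whose signal was most like that of 2 lead regions were listed as a description, over all 35 libraries and 24680 candidate promoter regions. For Nampt +42, the member with the lowest adjusted p in C26 cachexia, these were Ctdsp1 (Pearson r = 0.867), Scaf11 (0.846) and Hnrnph3 (0.838). For Nadk -7393, the member with the lowest adjusted p in 8025 cachexia, these were Pros1 (0.751), Adgrv1 (0.746) and Cd74 (0.746).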

How the data were processed

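Per the submitters' processing notes, reads were aligned to mm10 with BWA 0.7.5a-r405, and SAMtools and HOMER were used. How the authors treated duplicates and called peaks is not stated in the labels. The table's signal, as deposited by the authors, is the tag number per 400 bp region, normalized to 10 M tags in each library (per the file headers). Each value gave back whole read ends (100.0% within 0.05; a read end is 0.5 tag), so counts were recovered for edgeR and DESeq2.

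Values were TMM-scaled and analysed as log2(value + 1) with limma (trend and robust options) for 177251 regions, after filterByExpr removed 653. One model held 9 groups and the library series, from the number ranges in the library names (A for all C26 libraries and replicates 1 and 2 of NC26 and MC38, B for the rest). P-values were adjusted by Benjamini-Hochberg within each comparison over all regions, and measure the spread between animals. For weak regions this scale gives fold changes that are too small. Per-library values are as deposited.

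The members and gene lists were chosen with earlier results of these data known. Named regions are 1 promoter region per gene and, in each comparison with PBS, the region of each gene with the lowest adjusted p where called; other NAD genes gave up to 4 regions per direction and cachexia model. Further called regions, and Nnmt +12076, Nnmt -44175 and Nmrk1 +4626, were named after their values were seen. Alternatives were other scalings, no filter, a pseudocount of 5, edgeR, DESeq2, other covariates, subsets and libraries left out. The test was checked on simulated data, with changes larger than most reported here and only at regions of at least median signal. That check does not cover smaller changes or weaker regions. Software was Python 3.11.15 with pandas 2.3.3, and R 4.3.3 with DESeq2 1.42.0, edgeR 4.0.16 and limma 3.58.1.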

Additional observations from a re-analysis of the deposited data

Results flagged for a closer look

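Single libraries stood far from the other 3 of their group in 7 of 176 groups examined. Chance gives about 5%, so this number is not above chance, and some of the flags fall on the same library. Nnmt -72 was 42.77 tags per 10 M in NC26 PBS replicate 4, against 10.79 to 14.69 in the others. Nnmt +12076 was 29.12 in NC26 PBS replicate 4, against 0.0 to 2.49, and 13.05 in NC26 tumor replicate 4, against 1.34 to 2.88. C26 PBS replicate 2 was high at Sirt1 -114 (200.44, others 134.02 to 143.67) and at Nampt +42 (321.85, others 252.46 to 262.21). Nadk -282 was 407.33 in C26 pre-cachexia replicate 2 (others 335.71 to 346.25), and Nampt +473 was 69.2 in MC38 PBS replicate 2 (others 108.87 to 116.18).

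For 2 regions the C26 cachexia effect differed from the NC26 tumor effect. At Nnmt +6116 the log2 difference was 1.968 ± 0.551 (SE; limma, adjusted p = 0.043). At Nampt -92602, a weak intergenic region, it was 1.89 ± 0.536 (adjusted p = 0.046), with 2.64, 3.16, 3.24 and 2.74 tags per 10 M in C26 cachexia, against 1.71, 2.23, 0.93 and 1.45 in C26 PBS, and 1.44, 1.71, 2.02 and 0.0 in NC26 tumor, against 3.32, 3.85, 4.86 and 3.64 in NC26 PBS. Both calls were lost in edgeR (adjusted p = 0.15 and 0.1). The Nampt -92602 call was lost under 17 of 25 alternatives, 13 of them single libraries left out. Against PBS this region was called in neither cohort, with log2 0.62 ± 0.38 in C26 cachexia (limma, adjusted p = 0.31). In NC26 tumor it was -1.27 ± 0.38 (adjusted p = 0.17).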

How the results depend on the processing

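The number of member regions called depended on the libraries and on scaling. With single libraries left out, the count was 7 to 12 for C26 cachexia against C26 PBS (15 in all libraries), 1 to 4 for C26 pre-cachexia (3), 5 to 8 for 8025 cachexia (10), 0 to 1 for NC26 tumor (0), 0 to 0 for MC38 tumor (0), 1 to 6 for C26 cachexia against pre-cachexia (3), 0 to 2 for C26 minus NC26 effects (2), 0 to 1 for 8025 minus MC38 effects (0), 0 to 0 for C26 minus 8025 effects (0) and 8 to 22 for MC38 PBS against NC26 PBS (21). With library totals only, the counts were 6 for C26 cachexia, 0 for pre-cachexia and 0 for C26 minus NC26 effects. With the promoter share as a covariate they were 6 for 8025 cachexia, 1 for NC26 tumor, 0 for C26 minus NC26 effects and 9 for MC38 PBS against NC26 PBS. Array weights gave 7 for C26 cachexia against pre-cachexia, 1 for C26 minus NC26 effects and 1 for 8025 minus MC38 effects, and the C26 cohort alone gave 6 for cachexia against pre-cachexia. For C26 minus NC26 effects, a pseudocount of 5 gave 1, no library-series term 1, and edgeR and DESeq2 0 each. The other pair of PBS groups, 8025 against C26, gave 2, an alternative chosen after seeing the data. The cause of these moves was not tested.

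Same-numbered libraries did not deviate together: correlations of their deviations were -0.065 to 0.071 in C26, -0.157 to 0.007 in NC26, -0.134 to -0.036 in MC38 and -0.057 to 0.016 in 8025. A fit with the replicate number as a block gave 6 calls for 8025 cachexia and 1 for C26 minus NC26 effects. It could not be made for MC38 PBS against NC26 PBS, because each block lay within 1 cohort.

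Of 66 named results, 31 were called, 8 of these kept their call under every alternative run, and 1 of 35 others gained one. None reversed. Over all regions, library totals moved the split of higher against lower calls from TMM's 12832 and 8948 to 11390 and 5096 in 8025 cachexia, from 1856 and 468 to 1672 and 142 in C26 pre-cachexia, and from 241 and 72 to 214 and 18 in NC26 tumor. Regions with a few tags per 10 M, such as Nampt -92602, rest on few read ends, and 37.2% of regions overlap another and share reads.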
